A study of Mus musculus with 30 samples.

Results

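Transcript levels of 10 mouse blastocysts that each grew from 1 blastomere of a 2-cell embryo in SAGE 1-Step, here called SAGE twins, were compared with those of 10 intact blastocysts grown in KSOM(aa), here called KSOM controls. The 20 arrays were taken by their titles from a series of 30, and each array held the RNA of 1 blastocyst. SAGE 1-Step is a medium made for human assisted reproduction, and KSOM(aa) is a mouse embryo medium with amino acids. The comparison asks how a bisected embryo grown in such a medium differs from an undivided embryo grown in a mouse medium.

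All 20 embryos came from B6C3F1 × CD1 matings of hormonally stimulated females and were taken from the oviduct as zygotes. All reached the 2-cell stage in KSOM(aa). For a SAGE twin, the blastomeres were then separated, and 1 of them grew alone in SAGE 1-Step; the array of its sister, from GM501 CULT, was not used here. A KSOM control was left undivided and grew alone in KSOM(aa). Embryos were lysed at 4 days post coitum, at Theiler stage 5, after 96 h of culture. A SAGE twin had about 40 to 50 cells, against about 80 cells in a KSOM control. Medium, bisection and cell number thus all differed between the groups and cannot be told apart. Each array measured a whole embryo, so fewer cells of a type and less RNA per cell cannot be told apart either. The number of matings and of culture days behind the embryos is not in the labels, so p-values measure only the spread between these embryos.

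A blastocyst consists of an outer trophectoderm, which pumps fluid into a cavity, and an inner cell mass, which sorts into epiblast and primitive endoderm. Its cells import amino acids and make their own sterols and fatty acids. Sterol synthesis is switched on by SREBP2 when membrane cholesterol is low, and fatty acid synthesis by its relative SREBP1. Both factors are escorted from the endoplasmic reticulum by SCAP and held there by INSIG proteins. ATF4, a factor translated under amino acid shortage and other stresses, drives genes of amino acid synthesis, amino acid import and tRNA charging.

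Signals were the log2 values that the authors deposited, in which a difference of 1 is a doubling. The median over all 65956 transcript clusters of an array was 4.57, 4.90 and 5.22 in SAGE twins (lowest, median and highest array), against 4.59, 4.64 and 4.69 in KSOM controls. Means were 4.888 ± 0.225 in SAGE twins and 4.642 ± 0.029 in KSOM controls (SD, n = 10 each). The difference of 0.246 had a two-sided permutation p of 0.00284 (100000 resamples). The SAGE twins of pairs 1 to 6 and 8 had medians of at least 4.81, above every KSOM control, and the 3 SAGE twins of pairs 7, 9 and 10 lay at 4.67, 4.57 and 4.60. Because these 7 arrays stand apart, most gene results are given with and without them. Values without them rest on 3 SAGE twins against 10 controls and are called those of pairs 7, 9 and 10. Results are also given after each array was centred on its own median.

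Single SAGE twins also lay farther from the rest of their group than KSOM controls did. The root mean square distance between an array and the mean of the remaining 9 of its group was 0.52, 0.63 and 0.83 in SAGE twins (lowest, median, highest), against 0.35, 0.41 and 0.43 in KSOM controls. Means were 0.661 ± 0.107 in SAGE twins and 0.399 ± 0.030 in KSOM controls (SD, n = 10 each), and the ranges did not overlap. The permutation p was 2e-05, the smallest that the resamples can give. The SD of a gene was larger among SAGE twins for 87.5% of genes.

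**Figure D1:**
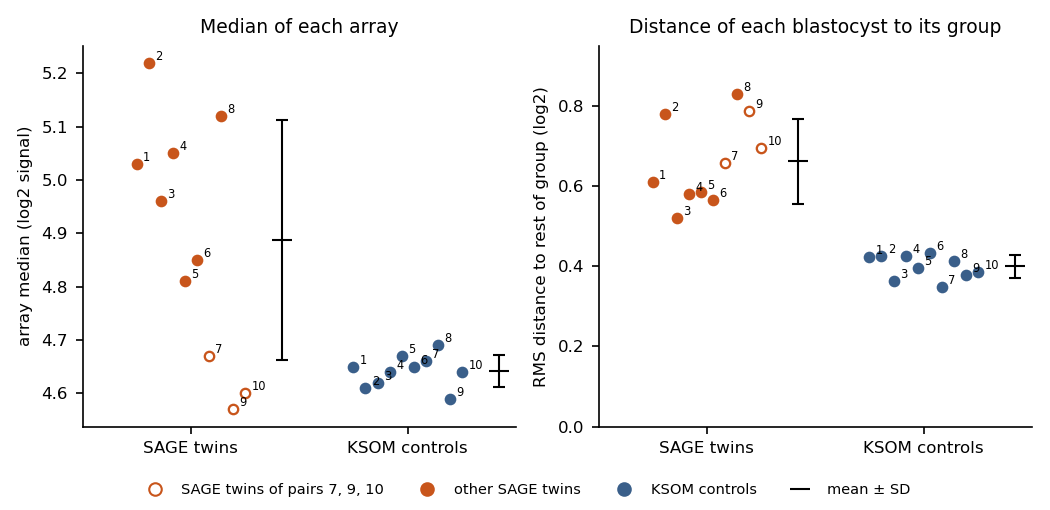
Array median (left, log2 signal) and root mean square distance of each blastocyst to the rest of its group (right, log2 units); each point is 1 array with its number, and bars are mean ± SD. The open points of pairs 7, 9 and 10 lie at the controls' medians, and all 10 SAGE twins lie farther from their group than any KSOM control.

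Defining markers of the blastocyst were present on all arrays. All 5 measured markers of trophectoderm (Cdx2, Gata2, Eomes, Krt8 and Krt18) exceeded the array median on all 20 arrays, as did 4 of 5 of the inner cell mass (not Fgf4) and 2 of 3 of the primitive endoderm (not Sox17). None of 5 markers of cumulus and granulosa cells and none of 2 of oviduct epithelium did so. Among markers of blood, only Alas2 (1 of 4) did, and among those of fibroblasts only Col1a1 (1 of 5). Summed linear signals of the granulosa markers ran from 83.7 to 194 in SAGE twins, against 83.5 to 137 in KSOM controls. Those of the oviduct markers ran from 46.3 to 84.2 in SAGE twins, against 42.8 to 59.0 in KSOM controls, and those of the blood markers from 86.8 to 139 in SAGE twins, against 85.6 to 101 in KSOM controls. Those of the fibroblast markers ran from 115 to 183 in SAGE twins, against 112 to 129 in KSOM controls.

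Of 18085 genes tested with limma, 1333 (7.37%) were higher and 1554 (8.59%) lower in SAGE twins at an adjusted p under 0.05. With arrays centred on their medians, 257 (1.42%) were higher and 3134 (17.3%) lower. The 257 were all among the 1333, as 19.3% of them, and all 1554 were among the 3134, as 49.6% of those. The median difference of all genes was 0.11 as deposited and -0.14 after centring, so the differences below read against those values. Pairs 7, 9 and 10 gave 57 higher (0.315%) and 67 lower genes (0.37%), with a median of all genes of -0.05. Of these, 16 and 8 were also called that way in all 10 twins. The SAGE twins of pairs 1 to 6 gave 38.7% higher and 19.9% lower, and those of pairs 7 to 10 gave 0.282% and 0.542%. Quantile normalization gave 2.75% higher and 12.5% lower, and a fit with the array median as a covariate 0.094% and 0.0332%.

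The split followed signal level. Among the 1809 dimmest genes tested, 226 were higher and 2 lower, with a median difference of 0.23 as deposited and -0.01 after centring. Among the 1809 brightest, 62 were higher and 297 lower, with a median of -0.00 as deposited and -0.25 after centring. Dim classes followed: 15.8% of 1059 long noncoding RNAs were higher and 0.378% lower, against 5.38% and 10.9% of 11812 protein-coding genes. After centring, 2.55% of the long noncoding RNAs were higher. The same dimmest genes had a median of -0.06 in pairs 7, 9 and 10. The shares of all genes given beside the lists below include these dim genes, few of which fell. Lists of bright genes thus read against a higher share of falls.

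**Figure D2:**
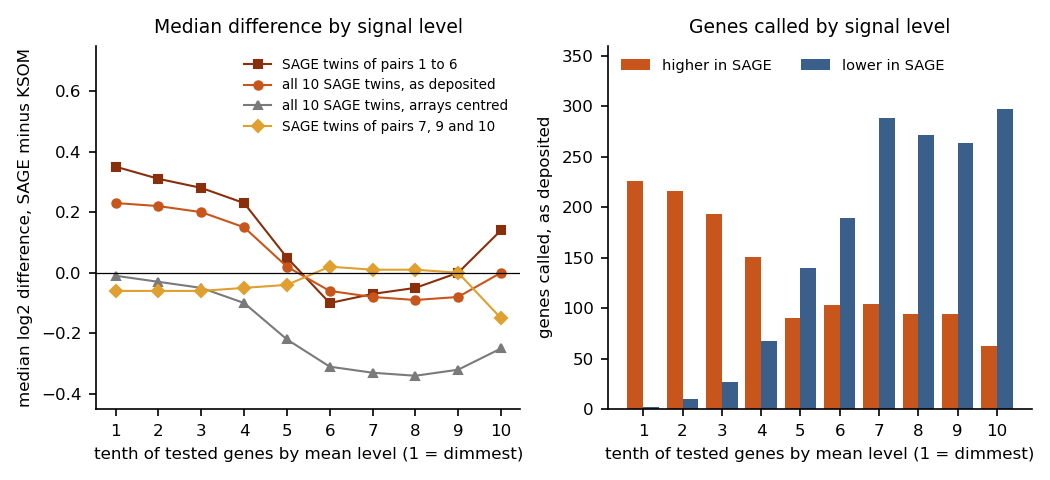
Left: median log2 difference, SAGE minus KSOM, in 10 groups of the 18085 tested genes ordered by mean level. Right: number of genes called higher or lower as deposited. Calls of higher genes fall with signal level, with 226 in the dimmest group and 62 in the brightest, and the median difference of pairs 7, 9 and 10 stays between -0.15 and 0.02.

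Enzymes of cholesterol synthesis were the 1 list with upward calls and no downward call in each of 3 settings: as deposited, centred, and in pairs 7, 9 and 10. As deposited, 5 of the 15 genes tested rose and none fell, with a median of 0.71, where 7.37% of all genes rose. After centring 5 rose, with a median of 0.46, against 1.42% of all genes. The count was 7 in pairs 7, 9 and 10, with a median of 1.37, against 0.315% of all genes. With the twin of pair 8 added (pairs 7 to 10), 4 rose and none fell, with a median of 1.0, against 0.282% of all genes. Of the 15, 12 were positive as deposited. In pairs 1 to 6 the list held 6 upward calls and 1 downward call, where 38.7% of all genes rose and 19.9% fell. Promoters of 3 of the enzymes are shown first, so that the motifs stand beside the values. RefSeq sequence (GRCm38.p6) of the 250 bases upstream of the start was at hand for 12 of the 15 genes. The CCAAT box, CCAAT on either strand, is bound by the factor NF-Y, a known partner of SREBP. It stood in at least 1 promoter of 12 of these 12 genes, against 37.5% of all 27025 genes with a promoter in the table. Counted by promoter, the shares were 80.0% of 15 and 33.8% of all. Counted by gene, the box also stood in 63.6% of 11 fatty acid synthesis genes and in 54.8% of 31 ATF4 targets, a list read below. Sqle, Fdps and Fdft1, called as deposited, had no sequence at hand. The sterol regulatory element searched, TCACNCCAC on either strand, stood in 1 of the 12, against 1.22% of all. The 3 promoters below are those of Idi1 and Cyp51, called and with sequence at hand, and of Hmgcs1, the gene with the sterol regulatory element. Capitals mark the CCAAT box in Idi1 and Cyp51 and the sterol regulatory element in Hmgcs1, which also held 3 CCAAT boxes left in lower case.
Idi1 (chr13:8885356-8885605, plus strand): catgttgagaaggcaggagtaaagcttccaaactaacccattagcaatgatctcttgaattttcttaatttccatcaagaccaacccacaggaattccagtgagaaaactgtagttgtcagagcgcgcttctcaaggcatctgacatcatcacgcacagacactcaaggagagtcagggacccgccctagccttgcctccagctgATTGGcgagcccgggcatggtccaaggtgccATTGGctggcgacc
Cyp51 (chr5:4104698-4104947, minus strand): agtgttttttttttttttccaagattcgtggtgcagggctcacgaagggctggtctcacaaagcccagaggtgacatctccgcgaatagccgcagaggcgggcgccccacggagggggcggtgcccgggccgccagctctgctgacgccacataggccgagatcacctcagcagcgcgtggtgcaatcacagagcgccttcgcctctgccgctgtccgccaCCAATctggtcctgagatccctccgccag
Hmgcs1 (chr13:119690101-119690350, plus strand): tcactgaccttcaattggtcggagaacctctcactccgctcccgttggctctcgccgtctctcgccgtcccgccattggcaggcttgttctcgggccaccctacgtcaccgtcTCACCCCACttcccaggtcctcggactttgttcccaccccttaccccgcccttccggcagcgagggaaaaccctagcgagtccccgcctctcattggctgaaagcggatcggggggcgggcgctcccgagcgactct

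Idi1 makes dimethylallyl diphosphate, an isoprene unit of sterols, and lies at chromosome 13, 8885606 to 8892396 (GRCm38.p6). Its signal was 8.24, 10.18 and 10.81 in SAGE twins (lowest, median, highest), against 6.97, 8.36 and 8.95 in KSOM controls. All SAGE twins but that of pair 8 lay above every control. The log2 difference was 1.73 ± 0.28 (SE, limma, n = 10 each), 3.32-fold, with an adjusted p of 0.00364. It was 1.49 after centring and 2.10 ± 0.33 in pairs 7, 9 and 10 (adjusted p = 0.0153).

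Cyp51, the lanosterol demethylase at chromosome 5, 4080674 to 4104697, had 8.83, 10.33 and 11.05 in SAGE twins, against 8.49, 8.94 and 9.34 in KSOM controls. Again 9 of 10 SAGE twins exceeded every control, and pair 8 was the lowest. The difference was 1.28 ± 0.23 (limma adjusted p = 0.00537), and 1.67 ± 0.14 in pairs 7, 9 and 10 (adjusted p = 0.000337). Sqle, squalene epoxidase, a control point of the pathway, had 10.93, 12.28 and 12.62 in SAGE twins, against 9.97, 10.82 and 11.62 in KSOM controls. All 10 SAGE twins lay above the controls' median and 7 above every control. Its difference was 1.24 ± 0.23 (limma adjusted p = 0.00687), and 1.70 ± 0.27 in pairs 7, 9 and 10.

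Fdps and Fdft1, which make farnesyl diphosphate and squalene in turn, completed the calls. Fdps rose by 1.00 ± 0.21 and Fdft1 by 1.04 ± 0.21, and all 10 SAGE twins exceeded the controls' median for both. Each of the 5 remained higher after centring, with differences from 0.76 to 1.49. Fdft1 missed the test in pairs 7, 9 and 10 (1.37 ± 0.32, limma adjusted p = 0.0591).

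A further 3 enzymes passed in pairs 7, 9 and 10 but not in all 10 twins. Mvk, mevalonate kinase, differed by 1.70 ± 0.29 in pairs 7, 9 and 10, against 0.79 ± 0.29 (adjusted p = 0.0594) in all 10. Lss, which closes the sterol ring, differed by 1.88 ± 0.28, against 0.71 ± 0.30 (adjusted p = 0.094). Hsd17b7, a late demethylation enzyme, differed by 2.20 ± 0.38, against 1.20 ± 0.42 (adjusted p = 0.0536). Hmgcs1, at the entry of the pathway, missed the test in both, at -0.21 ± 0.47 in all 10 twins and 1.09 ± 0.45 in pairs 7, 9 and 10.

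Of 11 genes of sterol sensing and uptake, 1 rose and 2 fell, with a median of 0.16, where 7.37% of all genes rose and 8.59% fell. Stard4, a carrier of cholesterol inside cells, rose by 1.23 ± 0.31. Npc1, which exports cholesterol from lysosomes, fell by 1.22 ± 0.30, and Scap by 0.61 ± 0.18 (limma adjusted p from 0.0172 to 0.0319 for the 3). Npc1 and Scap differed by -0.38 ± 0.32 and -0.05 ± 0.19 in pairs 7, 9 and 10, where the 1 gene of the list that passed was Lpin1. This phosphatidate phosphatase differed by 0.96 ± 0.16 there (adjusted p = 0.0196), against 0.34 ± 0.16 in all 10. Insig1, a target of SREBP that restrains it, had 10.41, 11.23 and 11.84 in SAGE twins, against 9.22, 11.02 and 11.45 in KSOM controls, and did not pass the test.

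Of 13 genes of fatty acid synthesis, 1 rose and none fell, with a median of 0.12. This is a share near the 7.37% of all genes that rose. The gene was Scd1, the desaturase that makes oleate and palmitoleate, at chromosome 19, 44394450 to 44407709. Its signal was 13.08, 13.73 and 14.05 in SAGE twins, against 11.54, 12.60 and 12.85 in KSOM controls. The ranges did not overlap, which held upward for 10 of all 18085 genes (0.0553%). The difference was 1.15 ± 0.18 (limma adjusted p = 0.00227), 0.90 after centring, and 1.49 ± 0.26 in pairs 7, 9 and 10. A further transcript cluster of Scd1 differed by 2.74 ± 0.29.

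The fatty acid list was also read in pairs 7, 9 and 10, where 5 of the 13 were higher, against 0.315% of all genes, and the median was 0.62. Fasn, fatty acid synthase, differed there by 2.17 ± 0.27, and Acaca, acetyl-CoA carboxylase, by 1.85 ± 0.18. Acly, which supplies their acetyl-CoA, differed by 1.29 ± 0.25, and Fads1, a desaturase of polyunsaturated fatty acids, by 1.89 ± 0.37 (limma adjusted p from 0.000664 to 0.0394 for the 4). Over all 10 twins the same genes differed by 0.14 ± 0.46, 0.36 ± 0.33, -0.23 ± 0.36 and 0.70 ± 0.35, and none passed. With the twin of pair 8 added (pairs 7 to 10), none of the 4 passed either (limma adjusted p from 0.103 to 0.183). In that set 1 of the 13 was higher, with a median of 0.56, where 0.282% of all genes were higher. Fasn had 7.42, 8.70 and 11.58 in SAGE twins, against 8.22, 9.00 and 9.60 in KSOM controls, so that 3 twins lay above and 3 below all controls. In the SAGE twins of pairs 1 to 6 it differed by -0.73 ± 0.25 (adjusted p = 0.0183), and Acly by -0.96 ± 0.22 (adjusted p = 0.00152). There 1 of the 13 was higher and 5 were lower, with a median of -0.2, where 38.7% of all genes were higher and 19.9% lower.

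Acsl4 and Acat3, in none of the lists, were likewise called in all 10 twins and in pairs 7, 9 and 10. Acsl4, which activates arachidonate and other long-chain fatty acids, had 6.58, 8.62 and 10.11 in SAGE twins, against 6.44, 6.72 and 7.46 in KSOM controls. It rose by 1.59 ± 0.31 (limma adjusted p = 0.00783), and by 2.44 ± 0.29 in pairs 7, 9 and 10. Acat3, of the acetyl-CoA acetyltransferase family, had 7.28, 7.89 and 8.46 in SAGE twins, against 6.44, 6.95 and 7.31 in KSOM controls, and rose by 1.00 ± 0.15.

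**Figure D3:**
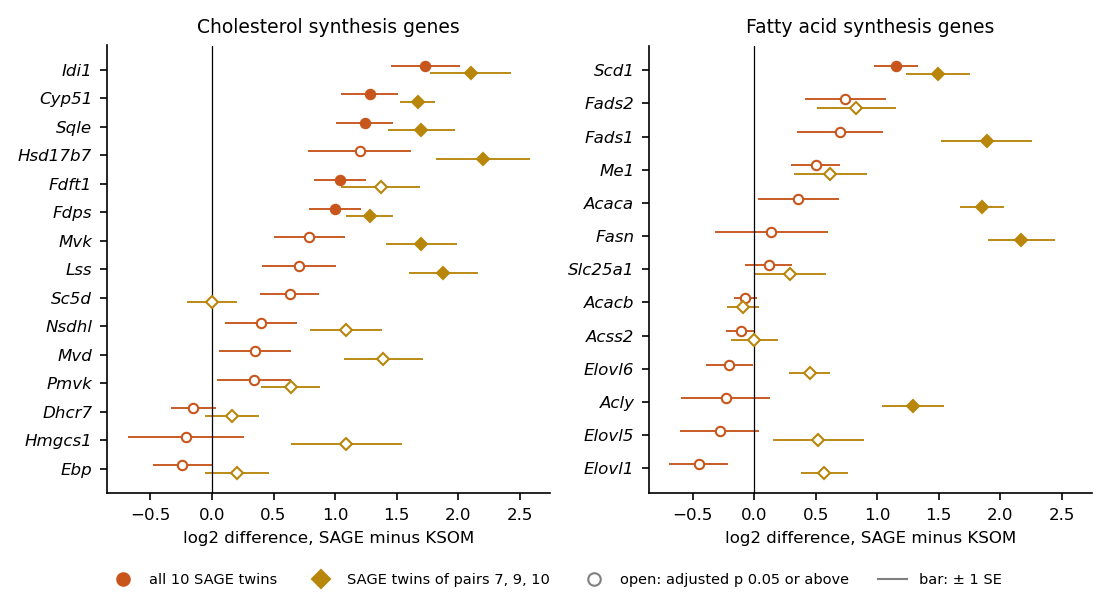
Log2 difference, SAGE minus KSOM, with its SE for every tested gene of cholesterol synthesis (left) and fatty acid synthesis (right), for all 10 SAGE twins (circles) and for pairs 7, 9 and 10 (diamonds). Filled symbols passed an adjusted p of 0.05; 5 circles and 7 diamonds are filled on the left, 1 circle and 5 diamonds on the right.

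Of 16 genes of lipid droplets and fatty acid oxidation, none rose and 5 fell, against 8.59% of all genes that fell. The other 11 did not pass, 4 of the 16 were positive, and the median was -0.56. Dgat1, which forms triglyceride, fell by 1.14 ± 0.25, and Plin2, the coat protein of lipid droplets, by 0.94 ± 0.25. Hadha and Acadvl, enzymes of mitochondrial beta-oxidation, fell by 0.91 ± 0.21 and 0.84 ± 0.21. The median of the 16 was 0.11 in pairs 7, 9 and 10, with no calls.

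Both metallothioneins named here rose, while 2 zinc importers fell. Mt1, which buffers zinc and copper, had 11.18, 13.03 and 13.36 in SAGE twins, against 10.44, 11.01 and 11.64 in KSOM controls. All 10 SAGE twins exceeded the controls' median and 9 exceeded every control, the lowest being that of pair 9. It rose by 1.64 ± 0.24 (limma adjusted p = 0.00213), and its neighbour Mt2 by 1.05 ± 0.22. Slc39a4, a zinc importer of the plasma membrane, had 7.66, 8.65 and 10.16 in SAGE twins, against 9.71, 11.04 and 11.93 in KSOM controls, and fell by 2.25 ± 0.34. The importer Slc39a1 fell by 0.76 ± 0.17, and Slc30a1, a zinc exporter, differed by 0.59 ± 0.26 without passing. Of the 11 genes of the list 2 rose and 5 fell, where 7.37% of all genes rose and 8.59% fell. None was called in pairs 7, 9 and 10, with Mt1 at 0.74 ± 0.24, Mt2 at 0.85 ± 0.19 and Slc39a4 at -1.31 ± 0.47.

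The smallest p of all genes belonged to Khdc3, also known as Filia, a maternal-effect gene of the subcortical maternal complex, at chromosome 9, 73101381 to 73106631. Its signal was 11.46, 12.38 and 12.74 in SAGE twins, against 13.22, 13.83 and 14.72 in KSOM controls. The ranges did not overlap, which held downward for 20 of all genes (0.111%). It fell by 1.72 ± 0.20 (limma adjusted p = 0.000442) and differed by -1.97 after centring and by -1.27 ± 0.25 in pairs 7, 9 and 10 (adjusted p = 0.0361). Of the 16 maternal and oocyte transcripts tested, it was the one that fell and 1 rose, where 8.59% of all genes fell and 7.37% rose. Gdf9, an oocyte growth factor, rose by 0.56 ± 0.11, and the median of the list was 0.26 as deposited and 0.01 after centring.

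Among the genes with the next smallest p, Rrp9, Iffo2, Keap1 and Sh3bp1 likewise had ranges that did not overlap, with all 10 SAGE twins below every control. Rrp9, of the U3 small nucleolar particle, fell by 0.95 ± 0.13. Keap1, which marks NRF2 for degradation, fell by 0.67 ± 0.097. Sh3bp1, a RAC-directed GTPase activator, fell by 1.42 ± 0.21, Iffo2, an intermediate filament family gene, by 1.17 ± 0.16, and Renbp, renin-binding protein, by 1.22 ± 0.18. Their differences in pairs 7, 9 and 10 ran from -0.87 for Iffo2 to -0.52 for Rrp9 and Keap1, and none passed there.

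Across all genes, 11 were called higher and 8 lower as deposited, after centring and in pairs 7, 9 and 10 alike. The named genes among the 11 were Idi1, Cyp51, Sqle, Fdps, Scd1, Acsl4 and Acat3, each described above. The named genes among the 8 were Khdc3, Ube2s, Tex261, Coq3, Pex16, Rab20 and Ndufa9. Ube2s, a ubiquitin-conjugating enzyme of the anaphase-promoting complex, fell by 1.25 ± 0.25, and Tex261, linked to vesicle export, by 1.16 ± 0.17. Coq3, of ubiquinone synthesis, and Pex16, of peroxisome assembly, fell by 0.94 ± 0.21 and 0.86 ± 0.15. All 3 sets share controls and twins, so these counts are no independent repeat. With the twin of pair 8 added (pairs 7 to 10), Idi1, Fdps and Acsl4 missed the test (limma adjusted p from 0.0518 to 0.0734). Of the named lower genes, Pex16 missed it there (adjusted p = 0.0651). Myh10, nonmuscle myosin heavy chain IIB, was the 1 gene called in opposite directions: it fell by 1.40 ± 0.47 in all 10 twins and was higher by 0.73 ± 0.14 in pairs 7, 9 and 10.

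**Figure D4:**
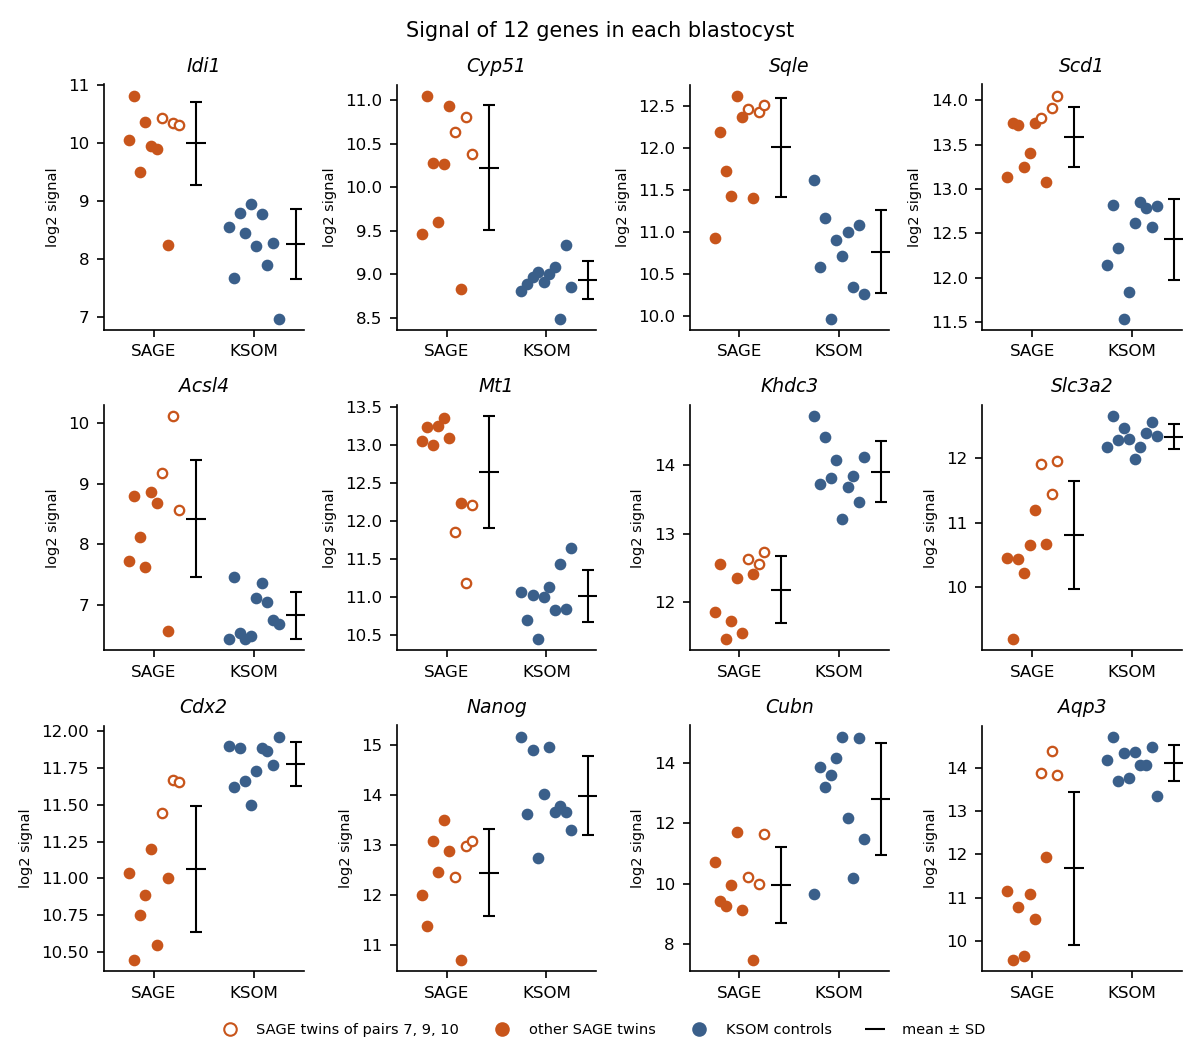
Log2 signal of 12 genes in every blastocyst, with SAGE twins left of KSOM controls, bars at mean ± SD and open points for pairs 7, 9 and 10. For Idi1, Cyp51, Sqle, Scd1 and Acsl4 the open points lie above all KSOM controls, whereas for Slc3a2, Cdx2 and Aqp3 they lie nearer the controls than the 7 other SAGE twins do.

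Lineage genes of all 3 blastocyst tissues were lower or did not pass. Of 22 trophectoderm genes none rose and 9 fell (median -0.39), of 21 epiblast and inner cell mass genes none rose and 8 fell (-0.54), and of 19 primitive endoderm genes none rose and 7 fell (-0.56), where 8.59% of all genes fell. After centring the counts were 13, 12 and 13, where 17.3% of all genes fell. None of these genes was called in pairs 7, 9 and 10, with medians of -0.12, -0.34 and -0.13.

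Cdx2, the regulator of trophectoderm, had 10.45, 11.02 and 11.67 in SAGE twins, against 11.50, 11.82 and 11.96 in KSOM controls. No SAGE twin reached the controls' median and 8 lay below every control. It fell by 0.71 ± 0.14 (limma adjusted p = 0.00834), against a difference of -0.19 ± 0.11 in pairs 7, 9 and 10. Tead4, the Hippo pathway factor upstream of Cdx2, fell by 0.94 ± 0.18. Slc2a3, the glucose transporter GLUT3, fell by 1.68 ± 0.34, as did Efnb1, the ligand ephrin B1, by 1.68 ± 0.37.

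Nanog, the epiblast regulator, had 10.71, 12.68 and 13.51 in SAGE twins, against 12.74, 13.73 and 15.17 in KSOM controls, and 5 SAGE twins lay below every control. It fell by 1.54 ± 0.35 (limma adjusted p = 0.0122). Sox2 fell by 1.03 ± 0.22, Pou5f1 (Oct4) by 1.14 ± 0.25, and Zfp42 (Rex1), a marker of naive pluripotency, by 1.58 ± 0.27. Nanog and Sox2 differed by -1.18 ± 0.44 and -0.91 ± 0.36 in pairs 7, 9 and 10, and Pou5f1 by -0.06 ± 0.15, none of which passed.

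Gata6, the early regulator of primitive endoderm, had 10.61, 11.76 and 12.22 in SAGE twins, against 11.27, 12.02 and 12.23 in KSOM controls, and did not pass (-0.42 ± 0.20, adjusted p = 0.126). Cubn, the endocytic receptor cubilin, had 7.48, 9.96 and 11.70 in SAGE twins, against 9.67, 13.40 and 14.87 in KSOM controls, so the ranges overlapped. It fell by 2.85 ± 0.66, the largest fall among the named genes, and differed by -2.19 ± 1.0 in pairs 7, 9 and 10. The laminin chains Lama1, Lamb1 and Lamc1, of basement membrane, fell by 2.61 ± 0.53, 1.62 ± 0.43 and 2.38 ± 0.53. In pairs 7, 9 and 10 the 3 chains differed by -0.42 ± 0.47, 0.08 ± 0.38 and -0.10 ± 0.39.

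Of 40 ATF4 targets, 21 fell and none rose, with a median of -0.83, where 8.59% of all genes fell. After centring 27 fell, against 17.3% of all genes, and in pairs 7, 9 and 10 none was called, with a median of -0.15. The CARE element that ATF4 binds was searched as TGATGNAAN on either strand. It stood upstream of 6 of the 31 targets with a promoter at hand, against 3.89% of all genes. Of the 6, Asns and Gars are shown because the element lies within 31 bases of the start in both, with the element in capitals.
Asns (chr6:7693210-7693459, minus strand): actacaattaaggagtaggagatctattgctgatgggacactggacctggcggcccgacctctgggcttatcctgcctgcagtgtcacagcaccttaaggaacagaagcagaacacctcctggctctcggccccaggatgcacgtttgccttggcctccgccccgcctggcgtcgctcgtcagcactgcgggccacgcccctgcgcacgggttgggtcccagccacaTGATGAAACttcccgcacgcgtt
Gars (chr6:55037751-55038000, plus strand): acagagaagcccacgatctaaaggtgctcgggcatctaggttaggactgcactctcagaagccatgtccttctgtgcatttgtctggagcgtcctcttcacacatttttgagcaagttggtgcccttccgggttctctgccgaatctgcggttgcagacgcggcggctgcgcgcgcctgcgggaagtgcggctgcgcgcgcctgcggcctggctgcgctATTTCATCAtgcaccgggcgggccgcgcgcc

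Slc3a2, the heavy chain shared by several amino acid exchangers, had the smallest p of the list. Its signal was 9.20, 10.66 and 11.95 in SAGE twins, against 11.98, 12.31 and 12.64 in KSOM controls, and the ranges did not overlap. It fell by 1.51 ± 0.26 (limma adjusted p = 0.00462), and differed by -0.56 ± 0.14 in pairs 7, 9 and 10 (adjusted p = 0.0757). Its partner Slc7a5 (LAT1) had 7.14, 10.03 and 12.34 in SAGE twins, against 11.58, 12.20 and 13.15 in KSOM controls, and fell by 2.17 ± 0.51.

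Among the tRNA synthetases, Wars, Mars1 and Gars, for tryptophan, methionine and glycine, fell by 1.98 ± 0.35, 1.12 ± 0.23 and 1.31 ± 0.32. Sesn2, a leucine sensor that restrains mTORC1, fell by 1.44 ± 0.32. Several genes at the core of the response did not pass. Atf4 itself differed by -0.51 ± 0.21, Asns, asparagine synthetase, by -0.63 ± 0.22, and Ddit3 (CHOP) by -0.96 ± 0.45 (limma adjusted p from 0.0541 to 0.121). After centring, Asns (-0.88, adjusted p = 0.031) and Atf4 (-0.76, adjusted p = 0.044) passed.

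Of 22 amino acid transporters 11 fell and none rose, where 8.59% of all genes fell. The median was -1.04, the lowest among the 35 lists as deposited, and none was called in pairs 7, 9 and 10, where the median was -0.07. Slc7a8 (LAT2), an exchanger of neutral amino acids, had 6.57, 9.99 and 12.03 in SAGE twins, against 11.01, 12.20 and 13.77 in KSOM controls. It fell by 2.63 ± 0.58, and 8 SAGE twins lay below every control. Slc38a4, Slc7a6 and Slc38a7, carriers of neutral and basic amino acids and of glutamine, fell by 1.57 ± 0.29, 1.32 ± 0.26 and 1.34 ± 0.28.

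Genes of the blastocyst epithelium fell in part. Of 11 genes of cavitation, ion and water transport 4 fell and 1 rose, where 8.59% of all genes fell and 7.37% rose. Of 19 of cell junctions and polarity 3 fell and none rose, a share near that of genes of mean level 8.9 to 10.14, of which 271 of 1807 fell. After centring, 6 of the 11 and 6 of the 19 fell, where 17.3% of all genes fell. Aqp3, a water and glycerol channel, had 9.57, 11.12 and 14.39 in SAGE twins, against 13.35, 14.12 and 14.72 in KSOM controls. It fell by 2.42 ± 0.53, with 7 SAGE twins below every control and pairs 7, 9 and 10 at 13.87, 14.39 and 13.83, within the controls' range. Atp1b1, of the sodium pump that fills the cavity, fell by 1.09 ± 0.25. Cldn4, a tight junction claudin, Cdh1, E-cadherin, and F11r, the adhesion molecule JAM-A, fell by 2.34 ± 0.64, 1.19 ± 0.32 and 1.16 ± 0.33. These 3 differed in pairs 7, 9 and 10 by 0.13 ± 0.22, 0.00 ± 0.20 and 0.31 ± 0.14, and 18 of the 19 junction genes were positive, none of them called.

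In energy metabolism, 10 of 17 genes of glucose uptake and glycolysis fell and 1 rose. Of the tricarboxylic acid cycle 3 of 19 fell, and of oxidative phosphorylation 5 of 24, where 8.59% of all genes fell. Bright genes fell more often, 263 of 1808 at mean levels of 10.15 to 12.13 and 297 of 1809 above. The tricarboxylic acid and oxidative phosphorylation lists are of such levels and stood nearer to those shares. Hk2, a hexokinase, fell by 1.38 ± 0.38, and Pfkp, a phosphofructokinase, by 0.86 ± 0.20. Ogdh, of the oxoglutarate dehydrogenase complex, fell by 1.48 ± 0.34, and Atp5a1, of ATP synthase, by 0.89 ± 0.19. In pairs 7, 9 and 10, Hk2 differed by 0.40 ± 0.23, Pfkp by -0.87 ± 0.35, Ogdh by -0.07 ± 0.19 and Atp5a1 by -0.13 ± 0.092, and none passed. The median of the glycolysis list was 0.06 there. The gene that rose was Aldoc, an aldolase, by 0.36 ± 0.087 as deposited, which differed by 0.11 after centring without passing.

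Lists of growth and division are read against the 8.59% of all genes that fell and the 7.37% that rose. Of protein-coding genes alone 10.9% fell and 5.38% rose. In ribosome biogenesis 9 of 28 fell, among them Pes1 by 1.19 ± 0.25 and Fbl, fibrillarin, by 0.68 ± 0.13. In DNA replication 7 of 24 fell, among them Mcm2, of the replicative helicase, by 1.53 ± 0.37. In mitosis 5 of 23 fell and 1 rose, and the kinase Aurka fell by 1.28 ± 0.39. In DNA methylation and imprinting 5 of 25 fell. Trim28, the corepressor that guards imprints, fell by 1.80 ± 0.41, the imprinted receptor Igf2r by 1.78 ± 0.39, the methyltransferase Dnmt3b by 1.16 ± 0.34, and Tet2, which oxidises methylcytosine, by 0.85 ± 0.17. No gene named here from these 4 lists was called in pairs 7, 9 and 10, and all but Tet2 and Fbl lay within 0.24 of no difference.

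The remaining lists are read against the 7.37% of all genes that rose and the 8.59% that fell, or 5.38% and 10.9% of protein-coding genes. Of 18 genes of the unfolded protein response 4 fell, among them its sensor Atf6 by 0.83 ± 0.15, Herpud1 by 1.17 ± 0.30 and the factor Xbp1 by 0.83 ± 0.22. Of 16 redox and NRF2 genes 5 fell, among them Txnrd1, thioredoxin reductase, by 1.30 ± 0.21. Of 11 heat shock chaperones 3 fell. Of 17 p53 targets 1 fell, and of 14 hypoxia genes 2 rose and 2 fell. Of 17 apoptosis regulators 2 rose and 2 fell, and of 13 Hippo genes 1 fell. Of 27 proteasome genes 1 rose and 3 fell, of 16 of the methionine and folate cycles 1 rose and 3 fell, and of 14 cytosolic ribosomal proteins none did either. Of 4 two-cell stage transcripts 1 rose. Of the marker lists of other cells, 1 of 5 granulosa genes (Tnfaip6, by 0.34 ± 0.11) and 1 of 2 blood genes (Cd52, by 0.32 ± 0.10) rose, none of 1 oviduct and 3 fibroblast genes did, and none was called after centring.

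**Figure D5:**
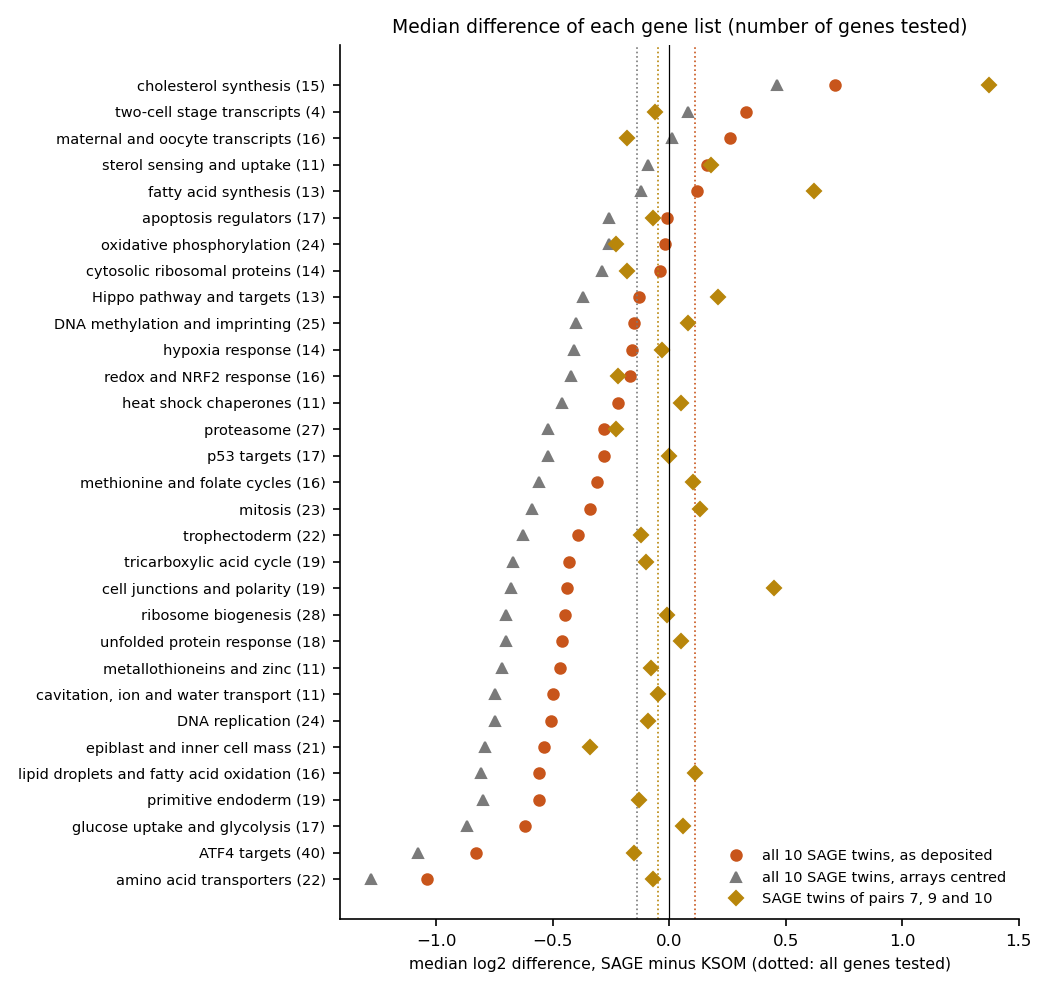
Median log2 difference, SAGE minus KSOM, of each gene list, with the number of genes tested in brackets, for all 10 SAGE twins as deposited and centred and for pairs 7, 9 and 10; dotted lines mark the medians of all genes tested. Cholesterol synthesis lies farthest right in all 3, at 0.71, 0.46 and 1.37, and amino acid transporters and ATF4 targets lie farthest left as deposited and centred.

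Of the 12 largest rises among genes that could be named, 9 are not yet described. Csta2, a stefin that inhibits cysteine proteases and has near-identical copies that probes may not separate, rose by 2.13 ± 0.67. Il1rn, the antagonist of the interleukin 1 receptor, rose by 1.82 ± 0.50, Pde8a, a cAMP phosphodiesterase, by 1.62 ± 0.30, and Cryab, a small heat shock protein, by 1.59 ± 0.35. Slco4c1, an organic anion transporter, rose by 1.60 ± 0.48, Stfa1, a stefin like Csta2, by 1.52 ± 0.49, Aspa, which cleaves acetylaspartate, by 1.5 ± 0.51, and Cct6b, a chaperonin subunit, by 1.48 ± 0.34. After centring Slco4c1, Stfa1 and Aspa no longer passed (limma adjusted p = 0.0508, 0.0563 and 0.0814). From the methionine list, Bhmt, which remethylates homocysteine with betaine, rose by 1.46 ± 0.38. The cluster used is named for another chromosome than the gene's own, chromosome 13. A further cluster of Bhmt differed by 0.90 ± 0.25. Rcor3, a corepressor subunit, rose by 2.24 ± 0.57 on 1 of its 5 clusters. The name of that cluster marks it as unmapped, and the other clusters differed by 0.25 to 0.61. In pairs 7, 9 and 10 none of these genes passed, with values from -0.26 for Csta2 to 1.14 for Bhmt. The largest falls not yet described were those of Alppl2, an alkaline phosphatase of early embryos, by 2.69 ± 0.54, Ttyh2, a membrane protein of the tweety family, by 2.32 ± 0.51, and Ppp1ca, a catalytic subunit of protein phosphatase 1, by 2.29 ± 0.52. Actr1a, of dynactin, fell by 2.24 ± 0.64 and Dmkn, dermokine, by 2.19 ± 0.48. Ppp1ca had 10.26, 13.30 and 15.69 in SAGE twins, against 15.40, 15.52 and 15.92 in KSOM controls, with 9 SAGE twins below every control. In pairs 7, 9 and 10 the 5 genes differed by -1.22 to 0.42, and none passed.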

How the data were processed

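Signals were log2 values that the authors deposited for 65956 transcript clusters per array, made with RMA in Affymetrix Expression Console, build mm10, per the submitters' processing notes, with software versions not given in the sources used here. In this method the program corrects background, aligns arrays and combines the probes of a cluster. Levels of different clusters were set against each other only roughly, as in the filter, the choice of cluster, the order by level and the markers. Labelling used the GeneChip WT Pico kit, per the labels' protocols. No label states the base of the logarithm, which is inferred here from their range and from RMA's own scale.

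Samples were grouped by their titles. Of the clusters, 32750 had a listed gene, and 30604 carried 1 symbol, of which 827 were replaced by the current symbol in GRCm38.p6. Another 2146 carried several symbols and were not named, and 33206 had none. The cluster with the highest mean stood for a gene, which gave 30142 genes, of which the upper 60% by mean over the 20 arrays (18085, at least 4.76) were tested. No pair of arrays held identical values, and r between arrays ran from 0.932 to 0.985.

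SAGE twins were tested against KSOM controls, unpaired, with limma 3.58.1 (lmFit, then eBayes) under R 4.3.3. Two-sided p-values were adjusted by Benjamini-Hochberg over 18085 genes and called under 0.05. This fit, and its repeats under the alternatives, give every adjusted p and SE in the text. Array medians and spread were compared by permutation with SciPy 1.17.1. The number of arrays limits the precision: the 95% interval of a gene's difference had a median half-width of 0.36.

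The comparison, the 35 gene lists and the naming rule were chosen with earlier results of these data known, as was the set of pairs 7, 9 and 10, which is defined by the array medians, a measure from the same values. The rule took the 12 largest rises and falls among called genes for which at least 8 of 10 twins lay beyond the controls' median in that direction, the 8 smallest p called as deposited and centred, up to 4 called members of each list, and Cdx2, Pou5f1, Nanog, Sox2 and Gata6. Predicted genes, clones, pseudogenes and small RNAs enter the counts only. Fdps, Mvk, Lss, Hsd17b7, Hmgcs1, Insig1, Fasn, Acaca, Acly, Fads1, Lpin1, Slc30a1, Slc7a5, Gars, Asns, Atf4, Ddit3, Ube2s, Tex261, Coq3, Pex16, Rab20, Ndufa9 and Myh10 were named after their values were seen. Lists are described by counts and medians with no test of their own. Of 691 listed genes, 611 were measured and 557 tested. Promoters are RefSeq's (GRCm38.p6), with only bases upstream of the start searched.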

Additional observations from a re-analysis of the deposited data

Results flagged for a closer look

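In 8 of 222 groups of 10 values, 1 array lay far from the rest of its group, and chance flags about 1 in 20 groups. Among SAGE twins, Idi1 was 8.24 in the twin of pair 8, with the nearest twin at 9.50, and Atf4 was 9.61 in the twin of pair 2, with the nearest at 10.67. Among KSOM controls, Mt2 was 11.18 and Mars1 11.41 in control 8, Cldn4 was 15.01 and Hk2 10.58 in control 6, Txnrd1 was 9.71 in control 9, and Ttyh2 was 10.15 in control 4.

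Of the 33206 transcript clusters without a listed gene, which entered no gene test, 7714 were higher and 230 lower in SAGE twins as deposited in a limma fit over all clusters. After centring 691 were higher and 313 lower.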

How the results depend on the processing

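The counts of 1333 higher and 1554 lower genes depended on most choices. Higher and lower counts were 257 and 3134 with centred arrays, 497 and 2269 with quantile normalization, 17 and 6 with the array median as a covariate, 5716 and 3120 with array weights, and 65 and 190 at an adjusted p under 0.01. Without the filter on dim genes 5969 were higher, among the upper 40% of genes 642, and over all transcript clusters 13747; the lower counts moved by under 1.5 times in these. They were 1674 and 1566 with trend and robust fitting. They were 51 and 98 in pairs 7 to 10, 57 and 67 in pairs 7, 9 and 10, and 6997 and 3598 in pairs 1 to 6. Leaving out 1 SAGE twin gave 460 to 3714 higher and 823 to 2550 lower genes, and 1 KSOM control 593 to 963 and 1000 to 1364. Counts of higher genes moved by over 1.5 times without the SAGE twin of pair 1 (461), 2 (486), 3 (605), 4 (460), 6 (791), 7 (2441), 9 (3714) or 10 (2997), and without 9 of the 10 controls, all but control 8. Counts of lower genes did so without SAGE twin 1 (823), 2 (892), 3 (974), 4 (827) or 9 (2550), or control 2 (1000).

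Same-numbered arrays of the 2 groups share no embryo, and their deviations correlated at r from -0.19 to 0.17, with 1 of 10 over 0.1 and 2 of 10 best with their own number. With the number as a replicate block, 693 genes were higher and 1215 lower.

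The difference in array medians was 0.22 without SAGE twin 8 (p = 0.00615) and 0.023 for the mean over tested genes (permutation p = 0.359). The difference in spread was 0.294 after centring and 0.243 without SAGE twin 8, both still past the same permutation of dependent distances.

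Of the 25 genes with values in the text that rose, 19 were called after centring, 7 with the array median as a covariate and 7 in pairs 7, 9 and 10. Of the 69 that fell, the numbers were 69, 3 and 7. Direction reversed in pairs 7, 9 and 10 for Myh10 (0.73), Actr1a (0.42), Hk2 (0.40), F11r (0.31), Dnmt3b (0.24), Cldn4 (0.13), Trim28 (0.09), Lamb1 (0.08), Igf2r (0.08), Aurka (0.04), Gata6 (0.02), Cdh1 (0.00), Csta2 (-0.26), Stfa1 (-0.05), Acly (1.29) and Hmgcs1 (1.09). It reversed in pairs 7 to 10 for Myh10 (0.24), F11r (0.03), Stfa1 (-0.02), Aspa (-0.08), Acly (0.87) and Hmgcs1 (0.69), and with the covariate for Myh10 (0.04), Acly (0.91) and Hmgcs1 (0.80). Fasn turned to -0.11 after centring, -0.29 with array weights, -0.73 in pairs 1 to 6, and -0.06, -0.14 and -0.07 without SAGE twin 7, 9 or 10. Acaca turned to -0.01 with array weights and -0.22 in pairs 1 to 6, and Hmgcs1 to 0.12 without SAGE twin 1. Leaving out 1 SAGE twin moved Hmgcs1 between -0.40 and 0.12 and Fasn between -0.14 and 0.33. The cause was not tested.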

Other observations

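Array weights estimated from the fit ran lowest in the SAGE twins of pair 9 (0.238), pair 8 (0.268) and pair 10 (0.316). Small noncoding RNAs were called mostly upward as deposited: 17.3% of 566 small nucleolar RNA genes and 19.5% of 338 microRNA genes were higher, against 0.53% and 0.888% lower. After centring, 3.18% and 7.69% were higher. On principal component 1 (39.3% of variance) the SAGE twins of pairs 7, 9 and 10 lay at 31.0, 48.9 and 39.6 and the other SAGE twins from -100.3 to -22.2, against 25.1 to 41.1 in KSOM controls.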
